A study of Rattus norvegicus with 18 samples.

Results

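The genes described here are 10 markers of macrophages, the tissue phagocytes that derive from monocytes or renew in place: Gpnmb, Cd68, Cd163, Mrc1, Clec7a, Clec10a, Csf1r, Aif1, Msr1 and Tyrobp. A marker was taken where the platform annotation lists a probe set with exactly 1 gene symbol and that symbol is one of the 10. This gave 10 probe sets for 9 genes, out of 31099 probe sets in the table and 14217 genes with a single-symbol probe set. Aif1 had 2 probe sets, and Msr1, a scavenger receptor, was not analysed here. Where a gene has several probe sets, the one with the highest mean over all arrays stands for it.

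The series follows rat colon after trinitrobenzene sulfonic acid (TNBS), a hapten used with ethanol to provoke colitis. The control group holds 6 arrays of healthy rats given saline by enema, and the TNBS groups hold 3 arrays each from days 2, 5, 7 and 14 after a dose of 10 mg TNBS, given rectally in 50% ethanol on day 0. The whole thickness of the colon went into each extract, so mucosa, muscle and serosa were read together, and a change in the number of macrophages cannot be told apart from a change in RNA per macrophage. Animals for the TNBS groups were picked on signs of inflammation, including myeloperoxidase activity, so inflamed colons are favoured by the selection. Ethanol without TNBS was not analysed here, the sample labels name Trizol extraction for the TNBS arrays and a technical manual for the controls (the design text names Trizol for all, and any such difference cannot be told apart from TNBS), and the sources used here do not give strain, sex, age or the sampling day of the controls. The design text counts 6 control rats but speaks of the TNBS arrays as replicates. Should these not be separate animals, their p-values would measure only technical spread.

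Macrophages of the healthy colon are kept up by signals through Csf1r, the receptor of colony-stimulating factor 1, and are rich in scavenger and lectin receptors such as Cd163, which takes up haemoglobin bound to haptoglobin, and Mrc1, the mannose receptor. During colitis, blood monocytes enter the wall and turn into macrophages with other surface and lysosomal proteins. The markers were therefore grouped by the role usually given to them. Cd163, Mrc1 and Clec10a, a galactose-binding lectin, stood for resident macrophages. Gpnmb, a glycoprotein of lysosome-rich macrophages in lesions, and Clec7a, the fungal-glucan receptor dectin-1, stood for inflammatory ones. Csf1r, the endosomal protein Cd68, the cytoskeletal protein Aif1 and Tyrobp, the adaptor protein DAP12, are shared by most macrophages. None of these markers is restricted to its class: neutrophils and dendritic cells also carry Clec7a and Tyrobp, dendritic cells Clec10a, and lymphatic endothelium Mrc1.

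Control and TNBS columns have different distributions in the deposited table, which limits every comparison with control. Column medians lay between 4.268 and 4.301 in control and between 5.027 and 5.075 in TNBS arrays. On the deposited scale the median gene was 0.56 to 0.62 above control on the 4 days, whereas after quantile normalization, which gives all arrays 1 distribution, it was -0.06 to -0.01. Levels are therefore given as quantile-normalized log2 signals, and a gene is said to rise or fall against control only if limma, fitted to all 31042 probe sets that are not array controls, calls it the same way on both scales at a Benjamini-Hochberg adjusted p under 0.05. Comparisons between TNBS days use the deposited values. Errors after a plus-minus sign are standard errors of the model unless SD is written, and adjusted p-values against control are those after quantile normalization. Different probe sets are compared by their changes across groups or arrays, not by their levels. In day 2 replicate 1 all 9 measured markers had their lowest signal of that day, and the day 2 calls are given with and without it. Detection calls were not used here. The mean control signal of Cd163 as deposited, 4.06, lay below the median of every control array and that of Clec7a, 4.35, just above, so a rise from these levels may be understated and no fold is given for either gene. Those of Cd68, Aif1, Clec10a and Tyrobp, at 4.56, 4.58, 4.64 and 4.67, were above these medians but still low. Their rises, and the fold given for Tyrobp, may be understated as well.

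The sequence before the start site is shown for 4 of the markers, and its part in their courses was not tested. Promoter windows from RefSeq (build GRCr8) matched 6 of the 9 measured genes: Gpnmb, Cd68, Cd163, Mrc1, Clec7a and Csf1r. Each line below gives, on the strand of the gene, the 250 bases before the start used in the promoter table. That start is the outer end of the annotated gene for Gpnmb, Cd68 and Mrc1, but not for Cd163, Clec7a and Csf1r. Gpnmb lies at chr4:79340878-79341127 on the plus strand, Cd163 at chr4:158770524-158770773 on the plus strand, Mrc1 at chr17:82157475-82157724 on the plus strand and Cd68 at chr10:54882442-54882691 on the minus strand. Capitals mark matches, on either strand, to GAGGAA, the core bound by the myeloid transcription factor PU.1 (TTCCTC on the other strand), or to TGANTCA, the core shared by AP-1 and MAF factors.
Gpnmb: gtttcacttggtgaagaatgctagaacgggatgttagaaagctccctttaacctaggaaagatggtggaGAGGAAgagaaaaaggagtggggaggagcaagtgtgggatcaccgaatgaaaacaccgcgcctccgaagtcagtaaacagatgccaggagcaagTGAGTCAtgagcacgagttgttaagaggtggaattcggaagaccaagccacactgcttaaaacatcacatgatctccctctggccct
Cd68: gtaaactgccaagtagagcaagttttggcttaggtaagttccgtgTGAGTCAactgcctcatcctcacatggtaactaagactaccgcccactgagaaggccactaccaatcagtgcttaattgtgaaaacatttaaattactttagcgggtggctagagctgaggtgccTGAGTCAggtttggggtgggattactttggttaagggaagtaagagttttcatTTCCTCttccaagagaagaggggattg
Mrc1: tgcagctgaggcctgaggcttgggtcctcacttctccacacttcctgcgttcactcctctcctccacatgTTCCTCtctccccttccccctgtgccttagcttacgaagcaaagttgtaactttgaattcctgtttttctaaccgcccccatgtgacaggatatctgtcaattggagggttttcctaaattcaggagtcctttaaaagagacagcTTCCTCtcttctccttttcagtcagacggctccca
Cd163: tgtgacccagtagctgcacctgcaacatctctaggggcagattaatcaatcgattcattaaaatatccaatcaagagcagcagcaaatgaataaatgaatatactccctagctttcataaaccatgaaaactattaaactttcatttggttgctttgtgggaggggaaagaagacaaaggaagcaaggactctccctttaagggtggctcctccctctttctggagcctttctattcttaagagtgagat

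Gpnmb and Cd68 held both motifs. In Gpnmb GAGGAA began 181 bases and TGANTCA 87 bases before the start, and in Cd68 TGANTCA began 205 and 80 bases and the GAGGAA match 27 bases before it. Mrc1 held GAGGAA matches 180 and 35 bases before the start and no TGANTCA, and Cd163 held neither. Over the 6 windows, 4 contained GAGGAA, as did 23.3% of 33465 promoters of the same length, and 2 contained TGANTCA, as did 6.34%. The pair of motifs together was in 2 of 6 windows and in 1.35% of all promoters, and the E-box form CACGTG was in 0 of 6 and in 5.59%. Other forms of the E-box were not searched for. No matches overlapped, and a match describes letters only, not binding.

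All 9 measured markers rose against control on days 2, 5 and 7. In the same comparisons 11.4%, 14.7% and 14.7% of the 14217 genes were called higher and 0.724%, 1.43% and 1.53% lower. The median marker was 2.09, 2.80 and 2.75 above control on the log2 scale, against -0.01, -0.02 and -0.06 for all genes. On day 14 only Tyrobp was called, 1 of 9 markers beside 6.4% of all genes higher and 0.176% lower, and the median marker was 0.21 above control. From day 7 to day 14 all 9 markers fell. Without day 2 replicate 1 all 9 markers were still called on day 2, with adjusted p at most 0.00372. The share of all genes called in that fit was not counted. The day 2 differences then were 2.34 for Cd163, 2.48 for Mrc1, 1.36 for Clec10a, 4.22 for Gpnmb, 1.68 for Clec7a, 1.57 for Csf1r and 2.25 for Aif1, each within 1.5-fold of the value from all 3 arrays, whereas Tyrobp at 3.55 and Cd68 at 3.16 moved further.

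**Figure D1:**
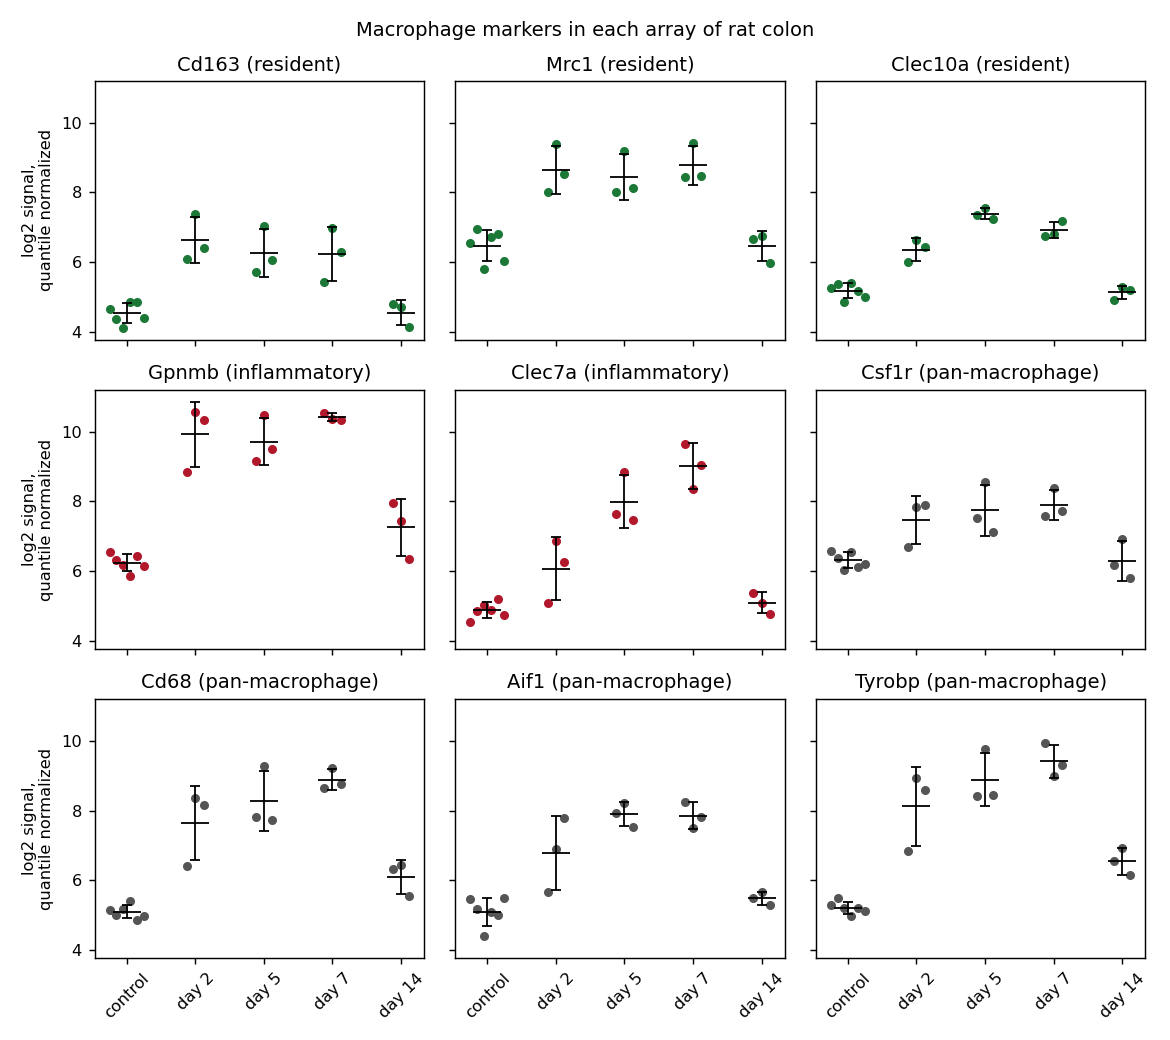
Quantile-normalized log2 signal of the 9 measured markers in each array, by group. Points are arrays, horizontal bars group means and error bars the SD (n = 6 control, n = 3 per day); all markers are high on days 2 to 7, and Tyrobp and Cd68 are the ones whose day 14 arrays lie wholly above control.

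Among the resident markers, Cd163 and Mrc1 were near their highest level by day 2. Cd163 signals in control had a lowest value of 4.11, a median of 4.52 and a highest value of 4.85. Replicates 1, 2 and 3 gave 6.10, 7.38 and 6.40 for day 2, while day 5 gave 5.71, 7.03 and 6.05. Day 7 gave 5.43, 6.97 and 6.30, and day 14 gave 4.80, 4.72 and 4.14. Every array of days 2, 5 and 7 was above every control array, and the day 14 arrays lay within the control range. Cd163 was higher than control by 2.09 ± 0.35, 1.73 ± 0.35 and 1.69 ± 0.35 on days 2, 5 and 7 (adjusted p = 0.000812, 0.00191 and 0.00188). Its day 14 difference was 0.01 ± 0.35 (adjusted p = 0.99).

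Mrc1 followed nearly the same course. Its control signals ran from 5.82 through a median of 6.63 to 6.94, and the day 2 arrays gave 8.01, 9.39 and 8.52. Day 5 gave 8.01, 9.19 and 8.12, day 7 gave 8.45, 9.42 and 8.46, and day 14 gave 6.67, 6.76 and 5.98. As for Cd163, no array of days 2 to 7 overlapped control and all 3 of day 14 lay within its range. The differences were 2.16 ± 0.35, 1.96 ± 0.35 and 2.30 ± 0.35 on days 2, 5 and 7 (adjusted p = 0.000702, 0.000865 and 0.000218) and -0.004 ± 0.350 on day 14. Among the markers Mrc1 was the one most like Cd163: over the 12 TNBS arrays, each gene centred on its own mean as deposited, they differed by 0.19 on average, against 0.39 to 1.08 for the other 7. By the same measure the marker nearest to Gpnmb was also Mrc1 (0.38). Cd163 was at 0.46 from Gpnmb, and the other inflammatory marker, Clec7a, was the furthest (0.83).

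Clec10a, the other resident marker, had its highest mean on day 5. Control signals ran from 4.85 through a median of 5.22 to 5.40. Day 2 arrays gave 6.00, 6.64 and 6.44, day 5 gave 7.37, 7.55 and 7.25, day 7 gave 6.76, 6.79 and 7.17, and day 14 gave 4.92, 5.28 and 5.20. The arrays of days 2, 5 and 7 overlapped neither control nor each other, with day 5 on top, whereas day 14 lay within control. Clec10a was above control by 1.18 ± 0.15, 2.21 ± 0.15 and 1.73 ± 0.15 on the first 3 days (adjusted p = 0.000135, 4.65e-07 and 3.01e-06) and at -0.05 ± 0.15 on day 14. The step from day 2 to day 5 was 1.00 ± 0.17 on the deposited scale and did not pass over all probe sets (adjusted p = 0.0876).

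Of the inflammatory markers, Gpnmb had the larger early change. Its control signals ran from 5.87 through a median of 6.24 to 6.55. Day 2 arrays gave 8.85, 10.58 and 10.33, day 5 gave 9.17, 10.47 and 9.51, day 7 gave 10.54, 10.37 and 10.33, and day 14 gave 7.96, 7.44 and 6.36. All 9 arrays of days 2 to 7 were more than 2 log2 units above the highest control, and on day 14 replicates 1 and 2 stood above control while replicate 3 lay within it. Gpnmb rose by 3.67 ± 0.37, 3.47 ± 0.37 and 4.17 ± 0.37 on days 2, 5 and 7, or between 11.1- and 18-fold (adjusted p = 1.27e-05, 1.68e-05 and 3.01e-06). On day 14 it was at 1.01 ± 0.37 (adjusted p = 0.0928), a difference that was called on the deposited scale (1.87 ± 0.36, adjusted p = 0.000244). On the deposited scale 26909 of the 31042 probe sets were called higher on day 14.

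Clec7a had its highest mean on day 7 and stood low on day 2. Control signals ran from 4.55 through a median of 4.88 to 5.21, and day 2 arrays gave 5.08, 6.86 and 6.28. Day 5 gave 7.65, 8.86 and 7.46, day 7 gave 9.65, 8.35 and 9.05, and day 14 gave 5.39, 5.10 and 4.78. Day 2 replicate 1 lay within control, all arrays of days 5 and 7 lay above every day 2 array, and day 14 overlapped control. The rises were 1.19 ± 0.36, 3.11 ± 0.36 and 4.14 ± 0.36 for days 2, 5 and 7 (adjusted p = 0.0309, 3.25e-05 and 2.70e-06). The day 2 call ended without day 2 replicate 2 (0.80, adjusted p = 0.199), without day 2 replicate 3 (1.09, adjusted p = 0.123) and without control replicate 1 or 6 (adjusted p = 0.0541 and 0.0508). With the replicate number as a block it had adjusted p = 0.112.

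Between the TNBS days 2, 5 and 7 themselves, Clec7a was the only marker called with all arrays in the fit. Consecutive days gave 0 calls among the 9 markers, for day 5 against day 2 (2 of 14217 genes higher, 0.0141%, and 0 lower, 0%) and for day 7 against day 5 (also 0.0141% higher and 0% lower), where limma at an unadjusted p under 0.05 gave 3 and 2 markers. Leaving out day 7 replicate 1 or 2 made Clec10a a call for day 5 against day 2 (adjusted p = 0.0421 and 0.0451). Day 7 against day 2, a comparison added after the values were seen, called Clec7a higher by 2.86 ± 0.40 (adjusted p = 0.00475), 1 of 9 markers beside 1.07% of genes higher and 0.274% lower. Without day 2 replicate 1 it was 2.38 (adjusted p = 0.0163). The call ended when the 12 TNBS arrays alone were fitted (adjusted p = 0.0955) and with the replicate block (adjusted p = 0.0532). Over the same interval Cd163 was at -0.36 ± 0.36, Mrc1 at 0.16 ± 0.39 and Gpnmb at 0.48 ± 0.42, none of them called. Tyrobp at 1.24 ± 0.41, Cd68 at 1.21 ± 0.40 and Aif1 at 1.07 ± 0.36 were not called either, nor were Clec10a at 0.56 ± 0.17 and Csf1r at 0.43 ± 0.34. At an unadjusted p under 0.05 limma gave 5 of the 9 markers for day 7 against day 2. The share of all genes at that threshold was not counted for any of these comparisons.

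**Figure D2:**
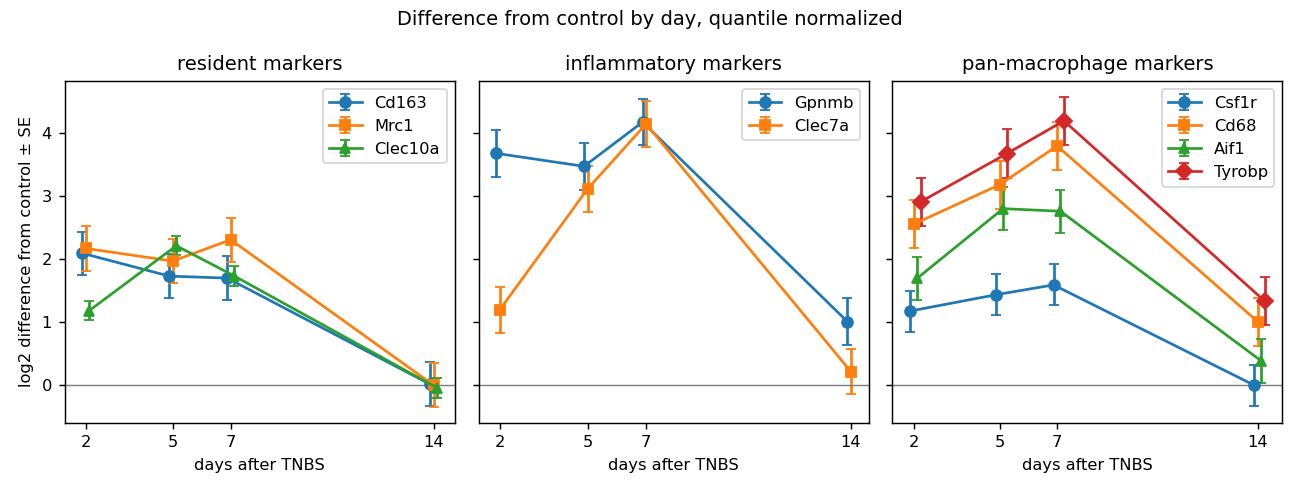
Log2 difference from control on days 2, 5, 7 and 14, quantile normalized, for the resident, inflammatory and shared markers; error bars are the standard error of the limma fit. Clec7a goes from 1.19 on day 2 to 4.14 on day 7, while Cd163 stays between 1.69 and 2.09, and the 3 resident markers and Csf1r are near 0 on day 14.

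The markers shared by most macrophages rose on the same 3 days, by different amounts. Csf1r had the smallest rises of all 9 markers. Its control signals ran from 6.03 through a median of 6.30 to 6.57, and the arrays gave 6.69, 7.85 and 7.91 on day 2 and 7.54, 8.55 and 7.13 on day 5. Day 7 gave 7.58, 8.38 and 7.73, and day 14 gave 6.18, 6.93 and 5.80. Day 2 replicate 1 stood only just above the highest control array, and on day 14 one array lay above, one within and one below the control range. Csf1r rose by 1.17 ± 0.33, 1.43 ± 0.33 and 1.59 ± 0.33 on days 2, 5 and 7 (adjusted p = 0.0205, 0.00451 and 0.00197), or 2.25- to 3.00-fold, and was at -0.01 ± 0.33 on day 14. Its day 2 call ended without day 2 replicate 2 (adjusted p = 0.108) or replicate 3 (adjusted p = 0.119).

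Tyrobp, through which several activating receptors of macrophages and natural killer cells signal, gave the only call on day 14. Control signals ran from 4.97 through a median of 5.21 to 5.50, and day 2 arrays gave 6.83, 8.93 and 8.60. Day 5 gave 8.43, 9.77 and 8.46, day 7 gave 9.93, 8.98 and 9.31, and day 14 gave 6.56, 6.92 and 6.16. No TNBS array overlapped control on any day. Tyrobp rose by 2.90 ± 0.38, 3.67 ± 0.38 and 4.19 ± 0.38 on days 2, 5 and 7 (adjusted p = 0.000156, 1.40e-05 and 3.64e-06) and by 1.33 ± 0.38 on day 14, or 2.51-fold (adjusted p = 0.0349). Without day 2 replicate 1 the day 2 difference was 3.55 in place of 2.90. The day 14 call was lost in 7 of the 18 fits that omit an array, those omitting control replicates 3, 4, 5 and 6 and the 3 day 14 replicates (adjusted p between 0.0529 and 0.164), and with the replicate block (adjusted p = 0.159).

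Cd68 ran close to Tyrobp. Its control signals ran from 4.86 through a median of 5.09 to 5.40, and its arrays gave 6.42, 8.37 and 8.15 on day 2 and 7.82, 9.26 and 7.73 on day 5. Day 7 gave 8.66, 9.23 and 8.77, and day 14 gave 6.32, 6.43 and 5.54. All 12 TNBS arrays were above the highest control array, the lowest of them by a small margin on day 14. Cd68 rose by 2.55 ± 0.38, 3.18 ± 0.38 and 3.79 ± 0.38 on days 2, 5 and 7 (adjusted p = 0.000411, 4.20e-05 and 8.10e-06) and was at 1.00 ± 0.38 on day 14 (adjusted p = 0.105). The day 2 difference was 3.16 without day 2 replicate 1. Without that array the day 14 values of Cd68 and Gpnmb were called (adjusted p = 0.0325 and 0.0391), as was that of Gpnmb without day 14 replicate 3 (adjusted p = 0.0328).

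Aif1, an actin-bundling protein of macrophages and microglia, rose on the probe set that stands for it and not on the other. The first gave control signals from 4.40 through a median of 5.13 to 5.49. Its day 2 arrays gave 5.67, 6.91 and 7.79, day 5 gave 7.94, 8.21 and 7.54, day 7 gave 8.26, 7.51 and 7.80, and day 14 gave 5.49, 5.65 and 5.30. The arrays of days 2 to 7 were all above control and those of day 14 overlapped it. The differences were 1.69 ± 0.34, 2.80 ± 0.34, 2.75 ± 0.34 and 0.38 ± 0.34 (adjusted p = 0.00318, 4.66e-05, 4.23e-05 and 0.524). On the other probe set they were -0.34 ± 0.15, -0.34 ± 0.15, -0.46 ± 0.15 and -0.53 ± 0.15, and no day was called the same way on both scales. All 18 of its signals lay between 4.10 and 5.04, so the 2 probe sets of Aif1 disagree.

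Resident and inflammatory markers were then compared inside each array, where an offset added to a whole array cancels. For each array the signal of a resident marker was subtracted from that of an inflammatory one and the control mean of this difference was taken off. Gpnmb minus Cd163 ranged from -0.69 to 0.35 in the control arrays. It stood at 1.59 ± 0.60 (SD, n = 3), 1.74 ± 0.01, 2.47 ± 0.86 and 1.00 ± 0.47 for days 2, 5, 7 and 14, and at 1.86 on day 2 without replicate 1. All 12 TNBS arrays lay above all 6 control arrays. This compares signals: with the control level of Cd163 below the array median, it does not show which transcript rose more, and on day 14 neither gene was called against control by itself. The two-sided exact permutation test gave p = 0.0238 on every day, the smallest that 3 against 6 arrays allow, and 0.0238 after adjustment over the 4 tests, which share the control arrays.

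The other pairs are given as values without a test. Gpnmb minus Mrc1 was at 1.51 ± 0.49 (SD, n = 3), 1.503 ± 0.114, 1.87 ± 0.60 and 1.01 ± 0.46 on days 2, 5, 7 and 14 and overlapped control on no day. Gpnmb minus Clec10a was at 2.49, 1.26, 2.44 and 1.05 and overlapped control on day 14. Clec7a minus Cd163 went from below control on day 2 (-0.90 ± 0.45, SD, n = 3) to above it on days 5 and 7 (1.38 ± 0.28 and 2.44 ± 1.42), without overlap on those days, and was at 0.20 on day 14. Clec7a minus Mrc1 was at -0.97, 1.14, 1.84 and 0.22, overlapping control on days 7 and 14. Clec7a minus Clec10a was at 0.01, 0.90, 2.41 and 0.26, and overlapped it on days 2 and 14. The day 2 margin of Clec7a minus Cd163 was narrow, with the highest day 2 array at -0.47 and the lowest control array at -0.44.

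From day 7 to day 14 all 9 markers fell, on the deposited scale. In that comparison 4.28% of the 14217 genes were called lower and 2.08% higher, and the median marker was at -2.28 against 0.06 for all genes. Clec7a fell by 3.79 ± 0.40 and Gpnmb fell by 2.98 ± 0.42 (adjusted p = 9.31e-05 and 0.00111). Tyrobp fell by 2.67 ± 0.41, Cd68 fell by 2.62 ± 0.40, Aif1 fell by 2.28 ± 0.36 and Mrc1 fell by 2.15 ± 0.39 (adjusted p between 0.00215 and 0.00547). Clec10a fell by 1.76 ± 0.17, Cd163 fell by 1.71 ± 0.36 and Csf1r fell by 1.48 ± 0.34 (adjusted p = 4.94e-05, 0.0139 and 0.0214). In each of the 9 genes the day 14 arrays lay below all day 7 arrays. The share of all genes with such a separation was not counted. The Csf1r call ended without any 1 of 5 arrays, the 3 of day 7 and replicates 1 and 3 of day 14 (adjusted p between 0.0504 and 0.105), the Cd163 call without day 14 replicate 3 (adjusted p = 0.0726), and both ended in a fit of the 12 TNBS arrays alone (adjusted p = 0.0899 and 0.0771).

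Against day 2, day 14 was lower in 1 of 9 markers, and omitting any 1 of several arrays changed this count. Clec10a fell by 1.20 ± 0.17 (adjusted p = 0.0122), one of 5 genes, or 0.0352%, that were called lower, while 1 gene, 0.00703%, was called higher. Day 2 replicate 1 had a mean over the shared markers of 0.97 above control against 2.58 and 2.68 in replicates 2 and 3. Without it 7 of 9 markers were called lower on day 14 than on day 2, among them Gpnmb at -3.02, Cd163 at -2.30 and Mrc1 at -2.26 (adjusted p = 0.00257, 0.0186 and 0.0227). The share of all genes called was counted only with all arrays, not in this or the other fits that omit an array. Omitting day 5 replicate 2 added Gpnmb (adjusted p = 0.0474), and omitting day 7 replicate 1 added Cd163 (adjusted p = 0.0276). Without day 2 replicate 2 or replicate 3, or without day 14 replicate 3, 0 were called, and without day 14 replicate 1 Gpnmb was called and Clec10a was not. Over the 4 TNBS days an F test, which uses no control level, called 8 of 9 markers beside 3.45% of genes, with Csf1r at adjusted p = 0.068. That count was 4 without day 14 replicate 3, 4 with the replicate block and 2 in the TNBS arrays alone.

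Whether the markers were back at the control level on day 14 depended on the scale. As deposited all 9 were called higher, between 0.72 for Cd163 and 2.19 for Tyrobp. On that scale 26909 of the 31042 probe sets were also called higher and 42 lower, and the median of all genes was 0.62 above control. After median centring of each array 3 were called (Tyrobp, Gpnmb and Cd68), and after quantile normalization Tyrobp alone. The share of all genes called on either of these scales by itself was not counted. Called higher both as deposited and after quantile normalization were 6.4% of genes. On the quantile-normalized scale the resident markers Cd163, Mrc1 and Clec10a were at 0.01, -0.004 and -0.05, and Csf1r at -0.01. After median centring they were at -0.03, 0.11 and 0.02, and Csf1r at 0.12, so their signs are not settled.

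**Figure D3:**
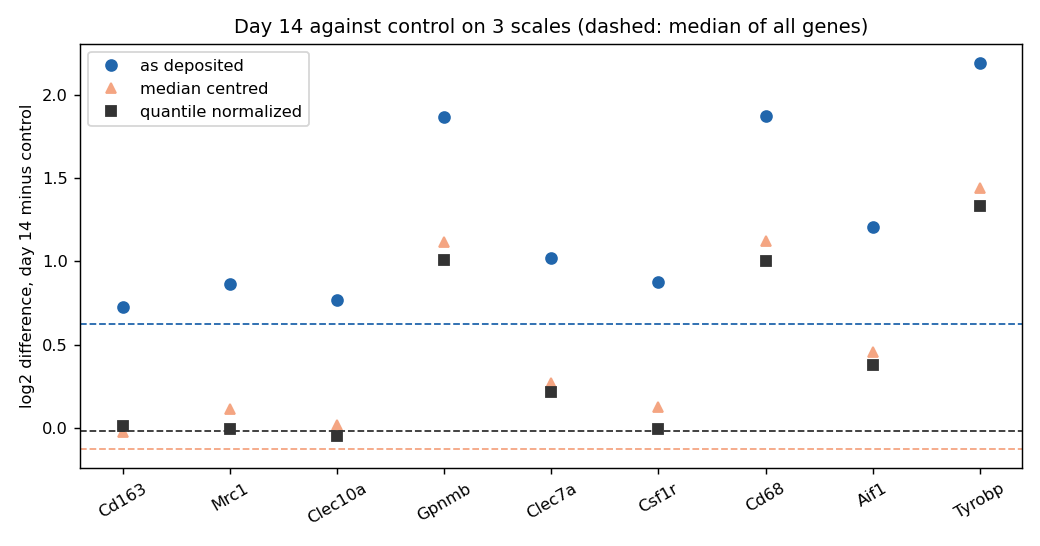
Log2 difference of day 14 from control for the 9 markers as deposited, after median centring and after quantile normalization; dashed lines give the median over all genes on each scale. The deposited values lie between 0.72 and 2.19, and on the other scales Tyrobp, Cd68 and Gpnmb are the markers near or above 1.

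Other macrophage genes were counted from 4 lists. Of 12 measured further resident macrophage genes 6, 8 and 8 rose on days 2, 5 and 7 and 2 on day 14, beside 11.4%, 14.7%, 14.7% and 6.4% of all genes. These included C1qa, a chain of the complement starter C1q, at 1.12 ± 0.21, 2.01 ± 0.21, 1.95 ± 0.21 and 0.71 ± 0.21 on the 4 days (adjusted p = 0.0021, 1.49e-05, 1.41e-05 and 0.0401). The other gene of this list called on day 14 was Cd4, which T cells also carry, and their part in it was not tested. Stab1, a scavenger receptor, rose by 1.27, 1.72 and 1.74 on the first 3 days, and the interleukin-10 receptor chain Il10ra was at 0.58 (adjusted p = 0.151) on day 2 before rises of 1.56 and 1.86. Of 15 monocyte and inflammatory macrophage genes 9, 11 and 12 rose on days 2, 5 and 7 and 0 on day 14. Among them Fcgr1a, the high-affinity immunoglobulin G receptor, rose by 1.86 ± 0.43, 2.89 ± 0.43 and 3.47 ± 0.43 and Plaur, the urokinase receptor, by 1.45 ± 0.31, 2.29 ± 0.31 and 3.10 ± 0.31. The cytokine Il1b rose by 3.52, 5.89 and 6.62. List medians on days 2, 5 and 7 were 0.57, 1.43 and 1.54 for the resident list and 1.45, 2.29 and 2.85 for the inflammatory one, beside -0.01 to -0.06 over all genes.

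Partners of the markers were counted in the same way. Of 11 genes of the Csf1r axis, with its ligands and myeloid transcription factors, 3, 5 and 4 rose on days 2, 5 and 7 and 0 on day 14, beside 11.4%, 14.7%, 14.7% and 6.4% of all genes. The median of this list was only 0.07, 0.31 and 0.44 above control on days 2, 5 and 7. Tfec, Cebpb and Csf2ra were called on all 3 days, Runx1 on days 5 and 7 and Irf8 on day 5. No ligand of Csf1r was among the genes called. Tfec, a relative of the lysosome gene regulator MITF, rose by 1.51 ± 0.27, 2.22 ± 0.27 and 2.42 ± 0.27, and the transcription factor Cebpb by 1.40 ± 0.33, 2.38 ± 0.33 and 3.02 ± 0.33. Runx1, a haematopoietic transcription factor, was at 0.32 on day 2 (adjusted p = 0.27) and rose by 1.17 and 1.52 on days 5 and 7. Of 14 genes that signal with Tyrobp, Fc receptors or Clec7a 4, 8 and 7 rose on the 3 days and 0 on day 14. The median of this signalling list was 0.60, 0.81 and 0.82 above control on days 2, 5 and 7. Fcer1g, the adaptor of Fc receptors and a relative of Tyrobp, rose by 2.32 ± 0.37, 3.27 ± 0.37 and 3.77 ± 0.37, the Src-family kinase Fgr by 2.00, 2.60 and 3.66, and Sirpa, the inhibitory receptor for CD47, by 1.09, 1.46 and 1.65. From day 7 to day 14 5 of 12 resident, 8 of 15 inflammatory, 5 of 11 Csf1r-axis and 3 of 14 signalling genes fell and 0 rose, beside 4.28% of all genes lower and 2.08% higher.

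Genes outside the markers were ranked by how closely they tracked Gpnmb or Cd163 over the 12 TNBS arrays. For Gpnmb the nearest 5 were Timp1, an inhibitor of matrix metalloproteinases (mean absolute difference 0.34 on the centred deposited log2 scale), Cd300c2 (0.35), the calcium-binding protein S100a4 (0.36), Pira2 (0.38) and the matrix Gla protein Mgp (0.39). For Cd163 they were Folr2, a folate receptor of macrophages (0.29), platelet factor 4, Pf4 (0.30), the endocytic adaptor Dab2 (0.35), the RNA sensor Tlr8 (0.39) and the lysosomal protease legumain, Lgmn (0.40). These distances describe the arrays and carry no test.

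Markers of other cell types, several of which share these genes, were counted as well, beside 11.4%, 14.7%, 14.7% and 6.4% of all genes called higher on days 2, 5, 7 and 14. Of 7 measured neutrophil markers 6, 7 and 7 rose on days 2, 5 and 7 and 2 on day 14. Their mean, less the control mean, ran from -0.13 to 0.10 in control arrays and from 1.98 to 4.49, 3.74 to 5.27, 4.54 to 5.57 and 0.89 to 1.56 for days 2, 5, 7 and 14. Neutrophils carry Clec7a and Tyrobp, and the part of this list in the rises of both genes was not tested. Its part in the rises of the monocyte and inflammatory macrophage genes, such as Il1b and Plaur, was not tested either. Of 3 dendritic cell markers 0, 2, 1 and 1 rose on the 4 days, with means up to 0.77, 0.93, 1.22 and 0.41, and their part in Clec10a was not tested. Of 5 markers of natural killer and cytotoxic cells, which also signal through Tyrobp, 0, 1, 0 and 0 rose, and their mean stayed between -0.18 and 0.26 in all 18 arrays. Of 5 lymphatic endothelial markers 3, 1, 1 and 0 rose, with means from 0.26 to 0.79 for day 2, -0.02 to 0.25 for day 5, 0.25 to 0.48 for day 7 and -0.385 to -0.0959 for day 14, and their part in Mrc1 was not tested. In the wall itself, 7 epithelial markers averaged between -0.80 and 0.30 and 6 smooth muscle markers between -0.82 and 0.30 in all TNBS and control arrays. On days 2, 5, 7 and 14, 0, 0, 1 and 0 of the epithelial and 1, 2, 0 and 1 of the smooth muscle markers were called lower. Beside them 0.724%, 1.43%, 1.53% and 0.176% of all genes were lower, and 0 markers of these 2 lists were called higher.

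**Figure D4:**
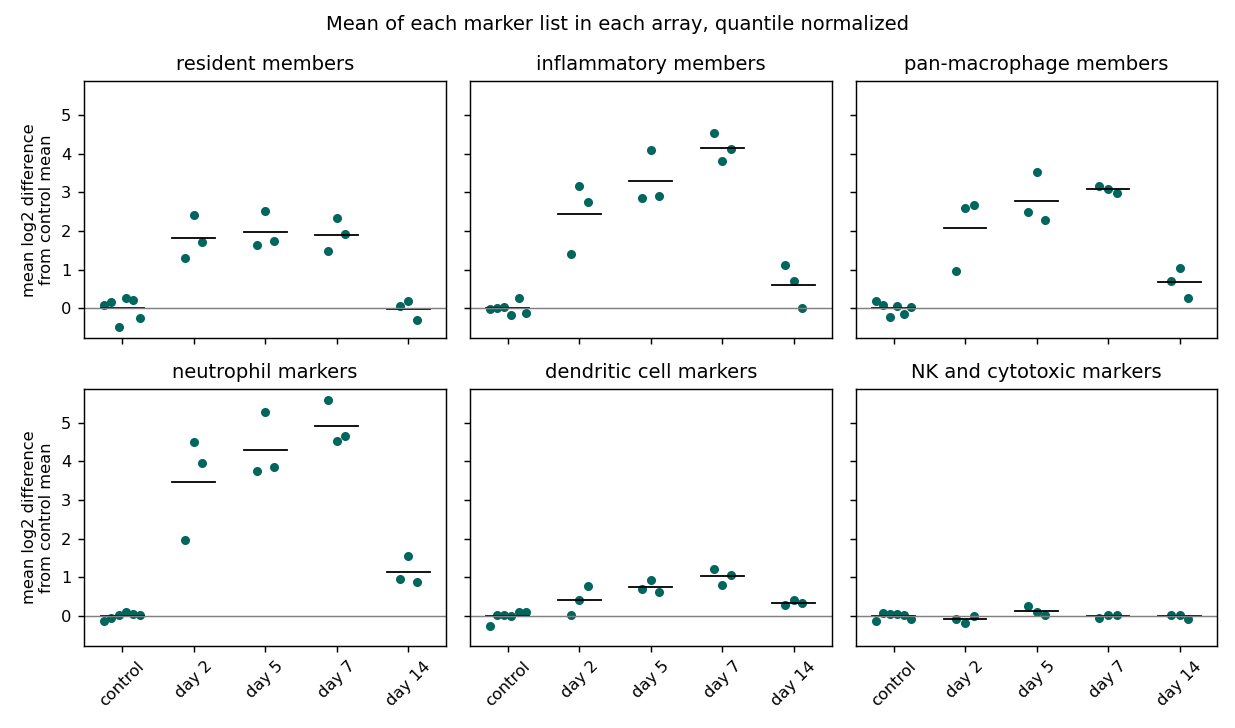
Mean quantile-normalized log2 difference from the control mean for the resident, inflammatory and shared macrophage markers and for neutrophil, dendritic and natural killer cell lists, array by array; bars are group means (n = 6 control, n = 3 per day). The neutrophil list reaches 5.57 on day 7, and the natural killer list stays between -0.18 and 0.26.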

How the data were processed

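The deposited table holds log2 signals of 31099 probe sets on 18 arrays, which the authors normalized in Bioconductor with affyPLM, per the labels' design text. The sources used here do not give the version, background method, log base or which arrays were normalized jointly, and the values were read as log2 from their range. After quantile normalization 57 array control probe sets were left out, leaving 31042, of which 20826 carry 1 gene symbol, 436 several and 9780 none listed. Fits used limma 3.58.1 in R 4.3.3, 1 coefficient per group over all 18 arrays, default empirical Bayes, two-sided. p-values were adjusted over all probe sets; counts and shares are over 1 probe set per gene. No array duplicated another.

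The markers, lists and tests were chosen with earlier results of these data known. All measured markers are named, with up to 3 genes per further macrophage list by the smallest F-test p against control, and the 5 genes nearest to Gpnmb and to Cd163. Of the lists of other cell types, those for T cells and for B and plasma cells are given with the closing observations. Alternatives were deposited values, quantile normalization and median centring each alone, leaving out the lowest 50% of probe sets, trend and robust priors, fits of fewer groups, a replicate block, the mean of a gene's probe sets, a threshold of 0.01 and omitting every array in turn. Day 7 against day 2 was added after the values were seen. The fit was tested on simulated data. The number of arrays limits precision.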

Additional observations from a re-analysis of the deposited data

Results flagged for a closer look

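For 8 of the 9 measured markers the signal differed among the 4 TNBS days by limma's F test on the deposited values. The adjusted p was 4.83e-05 for Clec10a, 0.000278 for Clec7a, 0.0044 for Gpnmb, 0.00606 for Aif1, 0.0094 for Tyrobp, 0.0102 for Cd68, 0.0155 for Mrc1 and 0.0164 for Cd163. The same test called 3.45% of all genes. It called 4 markers with the replicate block and 2 in the TNBS arrays alone, where the share of all genes was not counted. By Dixon's criterion no control array was an outlier in any marker. For Aif1, control replicate 3 at 4.40 lay below the other 5, at 5.00 to 5.49, without reaching that criterion.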

How the results depend on the processing

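All 9 markers were called higher than control on days 5 and 7 under every alternative run, and on day 2 the count was 7 at adjusted p under 0.01 and 8 with the replicate block. On day 14 the count of 1 became 9 on deposited values alone, 3 after median centring, 3 in a fit of the 2 groups compared, 0 with the replicate block and 0 at adjusted p under 0.01. On deposited values alone 26909 of the 31042 probe sets were called higher on day 14. For the other alternatives the share of all genes was not counted. Day 14 against day 7 kept between 7 and 9 calls. Day 14 against day 2 gave 3 calls without the dimmest 50% of probe sets, 3 with the mean of a gene's probe sets, 2 after quantile normalization, and 0 in the TNBS arrays alone, with the block and at adjusted p under 0.01. Day 7 against day 2 gave 0 in the TNBS arrays alone and with the block. The F test gave 5 at adjusted p under 0.01, 4 with the block and 2 in the TNBS arrays alone. The cause of these changes was not tested.

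Leaving out 1 array at a time moved the counts between 7 and 9 on day 2, 9 and 9 on days 5 and 7 and 0 and 3 on day 14 against control, between 0 and 1 for day 5 against day 2, 0 and 0 for day 7 against day 5, 7 and 9 for day 14 against day 7, 0 and 7 for day 14 against day 2, 1 and 1 for day 7 against day 2, and 4 and 9 in the F test. Gpnmb minus Cd163 ran from 1.27 to 1.86, 1.60 to 1.81, 2.01 to 2.86 and 0.77 to 1.23 on days 2, 5, 7 and 14; without a TNBS array the smallest possible exact p is 0.0714.

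Signs turned only in values that were not called in the main analysis. On day 14 against control Clec10a was at 0.77, Csf1r at 0.87 and Mrc1 at 0.86 as deposited; median centring gave 0.0174, 0.12 and 0.11 and put Cd163 at -0.0255. The block put Mrc1 at 0.0348, and the mean of both probe sets put Aif1 at -0.0768. Without 1 array these day 14 values ran from -0.11 to 0.22 for Cd163, -0.12 to 0.0602 for Clec10a, -0.32 to 0.24 for Csf1r and -0.15 to 0.24 for Mrc1. Day 5 against day 2 ran from -0.67 to 0.0036 for Cd163, -0.0645 to 0.53 for Csf1r, -0.73 to 0.0746 for Gpnmb and -0.50 to 0.17 for Mrc1. Day 7 against day 2 ran from -0.68 to 0.035 for Cd163, -0.0313 to 0.77 for Gpnmb and -0.12 to 0.50 for Mrc1, and day 7 against day 5 from -0.23 to 0.18 for Aif1, -0.34 to 0.38 for Cd163 and -0.10 to 0.50 for Csf1r.

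Whether the replicate numbers pair the arrays is not settled by the correlations of their deviations. Of 18 same-numbered pairs of arrays from different days 8 had a correlation over 0.1 (from -0.31 to 0.47, against -0.56 to 0.34 in 36 other pairs). The highest values of all, 0.47 and 0.42, came from replicates 1 and 2 of days 2 and 5, whereas replicate 3 of these days gave -0.22. The replicate block changed the counts named above.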

Other observations

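Lymphocyte markers were read in the same arrays. The mean of 6 T cell markers, less the control mean, was -0.55, -0.37 and 2.88 in day 2 replicates 1, 2 and 3, and that of 4 B and plasma cell markers -0.92, -1.02 and 3.09, whereas the shared macrophage markers were at 0.97, 2.58 and 2.68 in the same arrays. On day 7, when the shared macrophage markers were at 2.97 to 3.17, T cell markers were at -0.08 to 0.50 and B and plasma cell markers at -1.05 to 0.69. On day 14 the B and plasma cell markers reached 3.16, and in the control arrays they ran from -0.75 to 2.48. Against control 0, 0, 1 and 0 of the T cell markers were called higher on days 2, 5, 7 and 14, and 0 of the B and plasma cell markers on any day, beside 11.4%, 14.7%, 14.7% and 6.4% of all genes. On day 5, 1 of the 4 B and plasma cell markers was called lower, beside 1.43% of all genes.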
